A study of Homo sapiens with 12 samples.

Results

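Hyaluronan is a long sugar polymer of the extracellular matrix, and 9 genes for its synthesis, breakdown and binding were followed in human adipocytes in culture: the synthases HAS1, HAS2 and HAS3, the degrading factors CEMIP, HYAL1 and HYAL2, and the binding proteins CD44, TNFAIP6 and VCAN. They were picked by gene symbol from the 28901 named genes of the count table, with earlier results of these data over the same 4 groups known, so their values describe these libraries and lend no support to a claim about the list. RNA-seq was run on 12 libraries of the line ASC52telo hTERT, human adipose stromal cells kept dividing by telomerase, after 14 days of differentiation to adipocytes and with a lentiviral hairpin and a ZsGreen marker. The 4 groups of 3 libraries were scramble shRNA, scramble shRNA with LPS, linc-ADAIN shRNA (KD) and linc-ADAIN shRNA with LPS, where LPS, a bacterial cell wall component, was given at 100 ng/mL for 4 h. All groups shared the hTERT immortalization, the vector, sorting on ZsGreen and the differentiation media, which held insulin and dexamethasone throughout and rosiglitazone and isobutylmethylxanthine in the first week. A single cell line and 1 hairpin against linc-ADAIN, a long intergenic non-coding RNA, stand behind the groups, and the libraries of a group are a triplicate of 1 experiment, so their spread is that within an experiment. The level of linc-ADAIN was not analysed here, so the knockdown itself was not checked in these libraries.

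The HAS enzymes sit in the plasma membrane, build hyaluronan from UDP-glucuronic acid and UDP-N-acetylglucosamine, and push the growing chain out of the cell. HYAL enzymes and the secreted or membrane-bound CEMIP proteins cut the chain, and shorter fragments can act on immune receptors. CD44 is the main cell surface receptor, VCAN encodes versican, a large proteoglycan that binds hyaluronan, and TNFAIP6 encodes TSG-6, which is made in inflammation and moves heavy chains of inter-alpha-inhibitor onto hyaluronan. Expanding fat tissue is known to lay down hyaluronan around its adipocytes.

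The depth on named genes, in M (1e6 counts), was 48.1 to 53.8 per library in scramble, 31.5 to 44.5 in scramble with LPS, 33.4 to 50.5 in KD and 28.4 to 45.3 in KD with LPS. The summed level of 10 adipocyte markers, none of them at 0 in any group, ran from 3200 to 4427 CPM (counts per 1e6, scaled by edgeR's TMM method) in scramble, from 3702 to 4288 CPM in scramble with LPS, from 642 to 1880 CPM in KD and from 519 to 1206 CPM in KD with LPS. Of the 10, 7 were lower in KD without LPS and 8 with LPS at an adjusted p under 0.05. The summed level of 10 stromal and preadipocyte markers ran from 5230 to 6268, from 4961 to 5624, from 7266 to 8229 and from 8506 to 9579 CPM in the same order of groups, with DLK1 at 0 in each. This list was split by the KD, with 4 genes higher and 3 lower of 9 tested in both comparisons, among them LUM and DPP4 higher (log2 fold changes of 2.02 and 2.07 without LPS) and THY1, ENG and PDGFRB lower (-2.37, -1.36 and -0.90). The 8 leukocyte markers summed to 58.3 to 61.9, 61.1 to 72.4, 89.7 to 120 and 81.6 to 111 CPM, led by CD68 and CD163, with ITGAM at 0 in 3 groups, and in KD without LPS CD163 was higher (3.99) and CD68 lower (-0.78). The 5 endothelial markers summed to 23.6 to 27.1, 15.3 to 17.0, 11.8 to 12.3 and 8.45 to 13.2 CPM. Of 4 tested, 2 (VWF and TEK) were lower in KD without LPS. With LPS 3 (VWF, TEK and PECAM1) were lower and KDR was higher, on 2 to 6 counts in scramble with LPS against 94 to 120 in KD with LPS. Markers of all these lists thus moved with the KD. Over all genes tested, 12.1% were higher and 15.1% lower in KD without LPS, and 12.7% and 14.2% with LPS. The part of these markers in the values that follow was not tested. In bulk libraries fewer cells of a type and less RNA per cell cannot be told apart.

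The 250 bases before the start site are shown for TNFAIP6, HAS1 and CEMIP, because these 3 members passed the test in some comparison of groups with a difference of 2-fold or more. RefSeq's promoter table for GRCh38.p14 matched 8 of the 9 members, all but HAS2. The motifs, read on both strands, were AP-1 (TGANTCA), the cyclic AMP response element (CRE, TGACGTCA), the TATA box (TATAAA) and the NF-kB consensus, which were found in 6.57%, 1.65%, 10.7% and 5.21% of 35116 promoters. Capitals mark the matched letters, and each sequence runs 5′ to 3′ on the gene's own strand up to the base before the RefSeq start. TNFAIP6 (chr2:151357342-151357591, plus strand) held an AP-1 match at 129 to 123 bases before the start, HAS1 (chr19:51723992-51724241, minus strand) held a CRE match at 69 to 62 bases, and CEMIP (chr15:80779120-80779369, plus strand) held a TATA box at 30 to 25 bases. GENCODE starts the CEMIP gene upstream of the RefSeq start, within these matched letters. A letter match is a description and not a shown binding site, and no NF-kB match was found in the 8 windows.
TNFAIP6: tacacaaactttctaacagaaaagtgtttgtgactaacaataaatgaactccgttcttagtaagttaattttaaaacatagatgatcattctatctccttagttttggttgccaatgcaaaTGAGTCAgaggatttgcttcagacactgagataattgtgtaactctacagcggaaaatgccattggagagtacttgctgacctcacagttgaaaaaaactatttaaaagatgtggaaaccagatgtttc
HAS1: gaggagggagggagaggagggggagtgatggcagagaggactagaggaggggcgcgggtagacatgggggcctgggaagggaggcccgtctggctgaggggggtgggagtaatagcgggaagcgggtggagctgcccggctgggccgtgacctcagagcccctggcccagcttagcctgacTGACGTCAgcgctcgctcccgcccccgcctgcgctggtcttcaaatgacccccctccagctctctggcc
CEMIP: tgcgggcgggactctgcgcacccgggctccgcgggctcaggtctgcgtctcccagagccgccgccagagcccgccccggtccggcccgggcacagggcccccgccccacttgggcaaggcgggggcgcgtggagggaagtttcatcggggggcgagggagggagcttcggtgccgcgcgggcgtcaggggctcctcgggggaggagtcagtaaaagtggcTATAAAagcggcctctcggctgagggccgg

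CEMIP and TNFAIP6 were higher and VCAN was lower in KD both without and with LPS. TNFAIP6 and CD44 rose with LPS in both hairpins, whereas the rise of HAS1 was called in scramble only. Values are CPM per library, differences are log2 fold changes with a standard error (SE), and the adjusted p comes from edgeR's quasi-likelihood test over all genes tested. The SE was worked back from that test, as the size of the log2 fold change over the square root of the F statistic. All 9 members reached 10 counts in total in each fit. In KD without LPS, 4 members were higher and 1 was lower at an adjusted p under 0.05, beside 12.1% and 15.1% of 16217 genes, and 2 of the 9 were also at least 2-fold apart, beside 7.77% of genes. In KD with LPS, 2 were higher and 1 was lower, beside 12.7% and 14.2% of 15981 genes, and 2 were at least 2-fold apart, beside 8.48%. LPS in scramble raised 3 members and lowered 2, beside 5.9% and 8.38% of 15920 genes, with 2 at least 2-fold apart, beside 2.68%. LPS in KD raised 2 and lowered 1, beside 5.32% and 6.03% of 16169 genes, with 1 at least 2-fold apart, beside 2.25%. Nothing is read from these shares about the list, since its choice drew on the same contrasts. The median log2 fold change of the 9 was 0.13, 0.06, -0.04 and 0.21 in these 4 comparisons, beside 0.02, 0.03, 0.02 and 0.01 over all genes, and the median size was 0.69, 0.50, 0.56 and 0.81, beside 0.36, 0.36, 0.26 and 0.25. Each group stands in 2 of the comparisons, so these are not independent of each other.

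**Figure D1:**
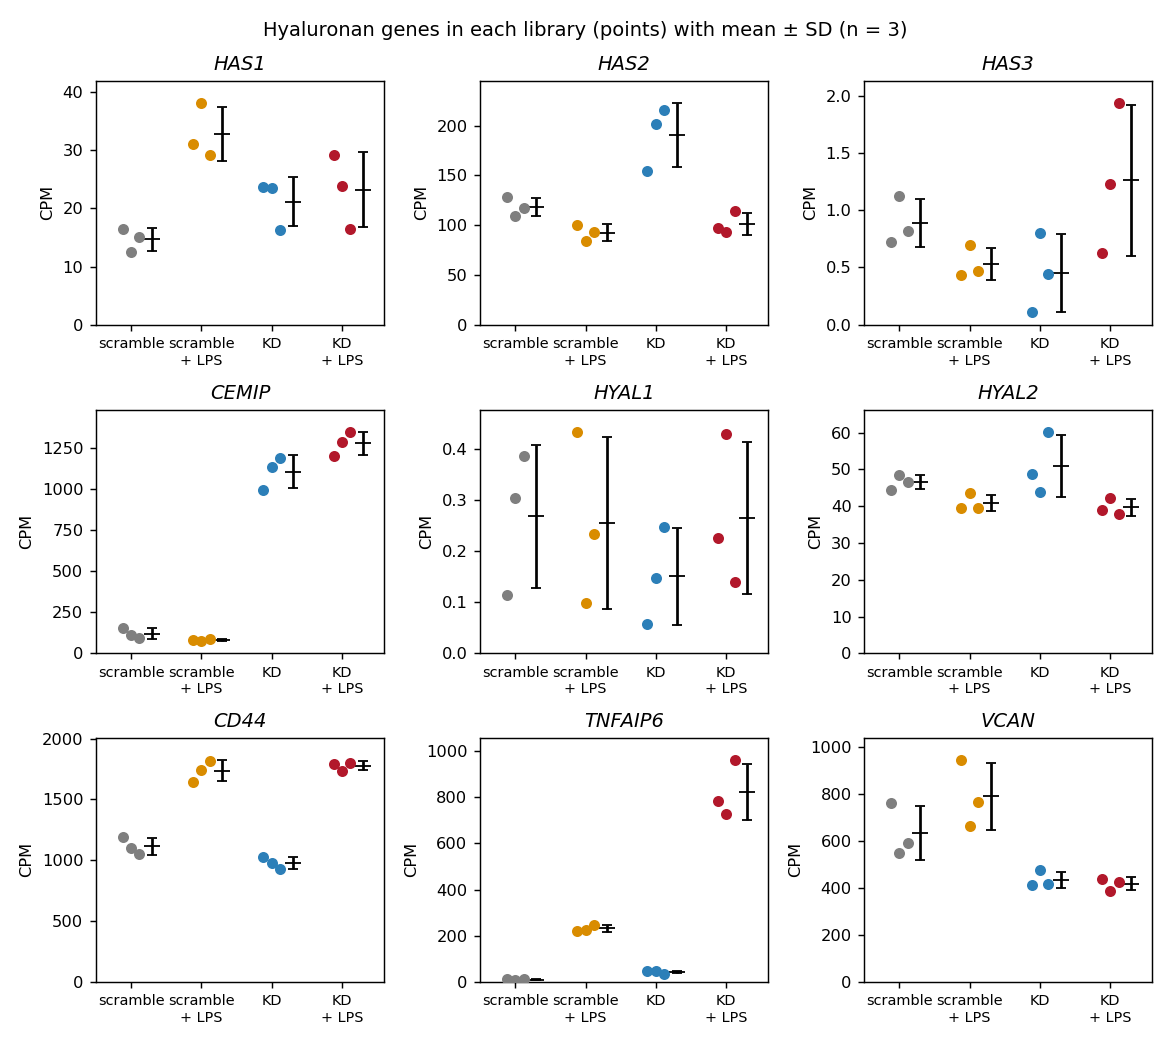
Level of each of the 9 genes (CPM, linear axis from 0) in each library (points), with the mean ± SD of 3 libraries per group beside them. CEMIP lies between 993 and 1344 CPM in the 6 KD libraries and at 155 CPM or less in the 6 scramble libraries, and TNFAIP6 is highest in KD with LPS (729 to 962 CPM).

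HAS2, the synthase with the most transcript in each of the 12 libraries, was higher in KD than in scramble without LPS and lower after LPS. It was at 128, 109.7 and 117 CPM in scramble, 101, 83.9 and 93.1 CPM in scramble with LPS, 155, 201 and 216 CPM in KD, and 97.1, 93.4 and 114 CPM in KD with LPS. The 3 KD libraries without LPS lay above all others, and the 2 LPS groups overlapped each other. The log2 fold change of KD without LPS was 0.69 (SE 0.11, adjusted p = 0.000767), from 118 ± 9.20 to 191 ± 31.9 CPM (SD, n = 3). With LPS it was 0.13 (SE 0.10, adjusted p = 0.374), and the libraries overlapped. LPS lowered HAS2 by a log2 fold change of -0.34 in scramble (SE 0.09, adjusted p = 0.0248) and of -0.91 in KD (SE 0.12, adjusted p = 8.7e-05). The call in scramble was lost in 4 of the 6 fits that left out 1 library (without scramble 1 or 3 or scramble with LPS 2 or 3), with an adjusted p of up to 0.107. The difference between both LPS effects was -0.56 (SE 0.16, adjusted p = 0.116).

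HAS1, a synthase of lower level, rose with LPS in scramble and less clearly differed between hairpins. Its levels were 16.4, 12.6 and 15.1 CPM in scramble and 31.1, 38.0 and 29.1 CPM in scramble with LPS. In KD it was at 23.7, 23.5 and 16.2 CPM, and in KD with LPS at 29.2, 23.9 and 16.4 CPM. All scramble libraries with LPS lay above those without, whereas the KD groups with and without LPS overlapped, and the third KD library was the lowest of its group in each. LPS raised HAS1 2.24-fold in scramble (log2 fold change 1.17, SE 0.13, adjusted p = 0.000118), and in KD the log2 fold change was 0.13 (SE 0.19, adjusted p = 0.762). The difference between these LPS effects was -1.02 (SE 0.26) and missed the threshold over all genes (adjusted p = 0.0698). Against scramble, KD was higher without LPS by 0.53 (SE 0.16, adjusted p = 0.0286), although 1 KD library lay within the scramble range, and this call was lost without scramble 2 or 3 or without KD 1 or 2 (adjusted p up to 0.124). With LPS the log2 fold change of KD was -0.50 (SE 0.18, adjusted p = 0.0531), with overlap of the groups, and it passed with DESeq2 (0.0268), with genes of at least 1 count kept (0.00925), with the replicate block (0.0162) and without KD with LPS 1 (0.0117).

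HAS3, the synthase with the least transcript, was at 4 to 59 counts per library, or 0.115 to 1.93 CPM, and no comparison had an adjusted p under 0.05. The scramble libraries with LPS (0.435 to 0.694 CPM) lay below those without (0.721 to 1.12 CPM), at a log2 fold change of -0.73 (SE 0.50, adjusted p = 0.395). In KD the change with LPS was 1.45 (SE 0.74, adjusted p = 0.271), with overlap. The log2 fold change of KD was -0.94 without LPS and 1.24 with LPS (adjusted p = 0.343 and 0.162), both with overlap. The gene overlaps CHTF8 and DERPC on the opposite strand, and the sources used here do not say whether the counting used strand.

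Compared per kb of the reference transcript, HAS2 made up most of the summed synthase level in every library, and the share of HAS1 was higher with LPS in scramble. HAS1 took 18.6% to 20.5% of the sum in scramble and 38.3% to 47.5% in scramble with LPS, without overlap. In KD it took 13.1% to 23.6%, and in KD with LPS 22.2% to 37.6%, which overlapped. HAS3 took at most 1.31%. The summed level of the 3 synthases was 35.1 ± 3.04 CPM per kb in scramble, 37.5 ± 1.42 in scramble with LPS, 55.1 ± 6.33 in KD and 35.2 ± 1.63 in KD with LPS (SD, n = 3), so the KD libraries without LPS (47.8 to 58.8 CPM per kb) stood above the other 3 groups (32.1 to 38.6 CPM per kb).

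**Figure D2:**
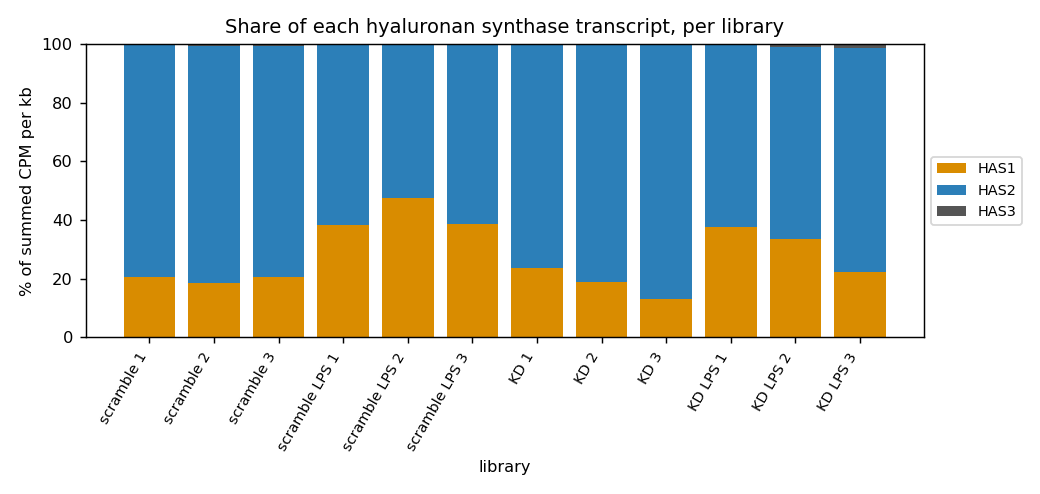
Share of HAS1, HAS2 and HAS3 in the summed synthase level of each library (percent of CPM per kb of reference transcript, stacked to 100). The HAS1 share is 38.3% to 47.5% in scramble with LPS and 18.6% to 20.5% in scramble without, while HAS3 is barely visible.

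CEMIP, a hyaluronan-binding protein needed for hyaluronan breakdown in fibroblasts, showed the largest KD difference of the 9 genes. Its gene spans chr15:80779343-80951776 of GRCh38 on the plus strand, with 30 exons in the reference transcript (GENCODE release 44). It was at 155, 109.6 and 95.7 CPM in scramble and at 79.5, 77.0 and 85.0 CPM in scramble with LPS. The KD libraries held 993, 1132 and 1191 CPM without LPS and 1203, 1285 and 1344 CPM with LPS. No 2 groups overlapped, and the order of the groups was scramble with LPS, scramble, KD and KD with LPS. KD was 9.24-fold above scramble without LPS (log2 fold change 3.21, SE 0.16, adjusted p = 9.77e-08) and 15.8-fold above it with LPS (3.99, SE 0.08, adjusted p = 7.89e-12).

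LPS itself lowered CEMIP in scramble by a log2 fold change of -0.56 (SE 0.14, adjusted p = 0.0221), and in KD its change was 0.21 (SE 0.07, adjusted p = 0.0899), which passed with DESeq2, with the replicate block and without KD 3 (adjusted p from 0.026 to 0.049). The fall in scramble rested in part on the first scramble library, without which it was -0.33 (adjusted p = 0.0493), and the call was lost when any of the 3 scramble libraries with LPS was left out (adjusted p up to 0.0772). The KD effect was larger with LPS than without by 0.78 (SE 0.18, adjusted p = 0.034), and CEMIP was the 1 member of 9 called in this interaction, beside 0.943% of 17173 genes higher and 0.332% lower. That call was lost in 9 of 12 fits that left out a library (adjusted p up to 0.111) and kept without scramble 1, scramble 3 or KD 3. The adipocyte marker sum was lower in the KD libraries and the stromal list was split, as given above, and their part in the CEMIP difference was not tested. MESD overlaps CEMIP on the opposite strand and is counted in the table.

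HYAL2, a membrane-anchored hyaluronidase that cuts long chains, passed the test in none of the 4 comparisons of groups as fitted here. It was at 44.5, 48.6 and 46.6 CPM in scramble, 39.7, 43.5 and 39.5 CPM in scramble with LPS, 48.8, 43.8 and 60.3 CPM in KD, and 38.9, 42.2 and 38.0 CPM in KD with LPS. Libraries with LPS lay below those without in both hairpins, with no overlap within a hairpin. The log2 fold changes were -0.18 for LPS in scramble (SE 0.08, adjusted p = 0.198) and -0.36 for LPS in KD (SE 0.12, adjusted p = 0.066), and neither KD comparison passed (0.13, adjusted p = 0.427 without LPS and -0.04, adjusted p = 0.801 with LPS, the latter turning to 0.04 when libraries were scaled by their size alone). The fall with LPS in KD passed in 5 of 7 other settings (adjusted p down to 0.0205) and without KD 2 (0.0222). TUSC2 overlaps HYAL2 on the same strand. HYAL1, the lysosomal hyaluronidase, had 2 to 20 counts per library, which is too few for a fold change to be read.

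Taken per kb, CEMIP stood to the synthase HAS2 at 0.58 ± 0.11 in scramble, 0.50 ± 0.04 in scramble with LPS, 3.37 ± 0.28 in KD and 7.29 ± 0.58 in KD with LPS (SD, n = 3). In each KD library CEMIP thus exceeded HAS2, and in each scramble library it lay below. Against HYAL2, the other degrading factor, the ratio was 0.66 ± 0.20, 0.51 ± 0.05, 5.63 ± 0.86 and 8.26 ± 0.70 with the reference transcripts. Which of CEMIP and HYAL2 is higher in scramble depends on the HYAL2 transcript, since with its longest one HYAL2 was at 10.99 to 11.99 and CEMIP at 13.0 to 21.0 CPM per kb.

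TNFAIP6, which encodes TSG-6, rose with LPS in both hairpins and was higher in KD with and without LPS. It was at 10.3, 8.04 and 10.03 CPM in scramble and at 222, 225 and 248 CPM in scramble with LPS. In KD it was at 46.9, 44.5 and 35.6 CPM, and in KD with LPS at 783, 729 and 962 CPM. The 4 groups did not overlap at any step of their order, which was scramble, KD, scramble with LPS and KD with LPS. LPS raised it 24.7-fold in scramble (log2 fold change 4.63, SE 0.11, adjusted p = 1.16e-09) and 19.5-fold in KD (4.28, SE 0.13, adjusted p = 2.23e-11). KD was 4.48-fold above scramble without LPS (2.16, SE 0.14, adjusted p = 4.88e-07) and 3.56-fold above it with LPS (1.83, SE 0.10, adjusted p = 1.64e-08). The difference between the KD effects was -0.33 (SE 0.17, adjusted p = 0.489), so on the log scale a departure from additive effects was not called. TNFAIP6 lies at chr2:151357592-151380046 on the plus strand, and its promoter is the first of those printed above.

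CD44, the receptor, was abundant in every library and rose with LPS whichever hairpin was present. It was at 1192, 1097 and 1051 CPM in scramble, 1648, 1746 and 1819 CPM in scramble with LPS, 1026, 979 and 929.7 CPM in KD, and 1795, 1737 and 1804 CPM in KD with LPS. All 6 libraries with LPS lay above all 6 without. LPS raised CD44 1.57-fold in scramble (log2 fold change 0.65, SE 0.08, adjusted p = 0.000185) and 1.82-fold in KD (0.86, SE 0.06, adjusted p = 2.17e-07). KD libraries without LPS lay just below those of scramble, at a log2 fold change of -0.18 (SE 0.08, adjusted p = 0.0949), and with LPS the hairpins overlapped (0.03, SE 0.06, adjusted p = 0.774). The annotation gives 38 transcripts of CD44, a gene known for alternative splicing, and the gene counts do not tell them apart.

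VCAN, the proteoglycan versican, was the 1 member lower in KD in both comparisons. It was at 762, 547 and 593 CPM in scramble and at 944, 662 and 766 CPM in scramble with LPS. The KD libraries held 414, 475 and 415 CPM without LPS and 439.8, 388 and 425 CPM with LPS. All 6 KD libraries lay below all 6 scramble libraries, and within each hairpin the libraries with and without LPS overlapped. The log2 fold change of KD was -0.54 without LPS (SE 0.11, adjusted p = 0.00411) and -0.92 with LPS (SE 0.11, adjusted p = 2.93e-05), the latter a 1.90-fold difference. LPS gave 0.33 in scramble (SE 0.14, adjusted p = 0.151) and -0.06 in KD (adjusted p = 0.743). The value in scramble passed with the replicate block (0.33, adjusted p = 0.00162) and without scramble 1 (0.49, adjusted p = 0.0381).

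**Figure D3:**
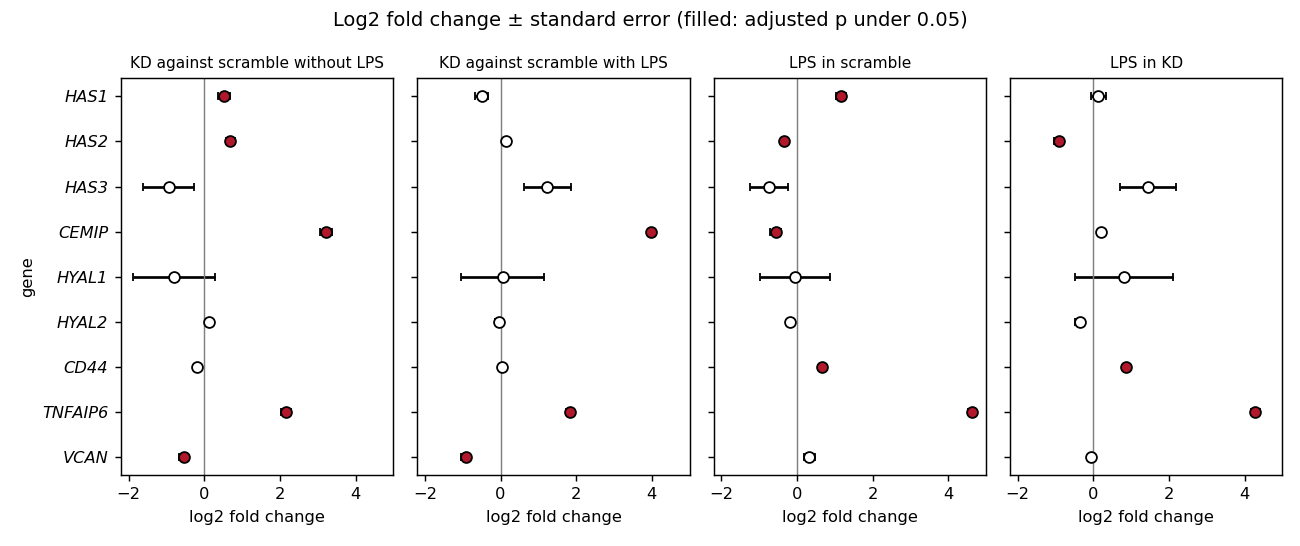
Log2 fold change (x axis) ± SE (worked back from the F statistic of the test) of each gene in the 4 comparisons of groups. Points are filled where the adjusted p was under 0.05. CEMIP and TNFAIP6 lie far to the right in both KD panels (3.21 and 2.16 without LPS), and TNFAIP6 does so in both LPS panels (4.63 and 4.28).

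Between genes, levels can be set side by side only per kb of transcript. In scramble CD44 was highest at 205 ± 13.2 CPM per kb, followed by VCAN at 51.3 ± 9.17, HAS2 at 27.9 ± 2.17, HYAL2 at 24.8 ± 1.08 and CEMIP at 16.3 ± 4.18 CPM per kb (SD, n = 3). HAS1 and TNFAIP6 shared the next places at 6.98 ± 0.94 and 6.66 ± 0.87 CPM per kb, closer than their spread. HAS3 and HYAL1 were at 0.21 ± 0.05 and 0.13 ± 0.07 CPM per kb. In KD with LPS the order was led by TNFAIP6 at 580 ± 85.6 CPM per kb, with CD44 at 327 ± 6.71 and CEMIP at 174 ± 9.67 CPM per kb, while HAS3 and HYAL1 stayed last in all 4 groups. With the longest transcript of each gene in place of the reference one, 29 of the 36 ranks were the same, and in scramble HYAL2 at 11.5 CPM per kb fell below CEMIP.

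**Figure D4:**
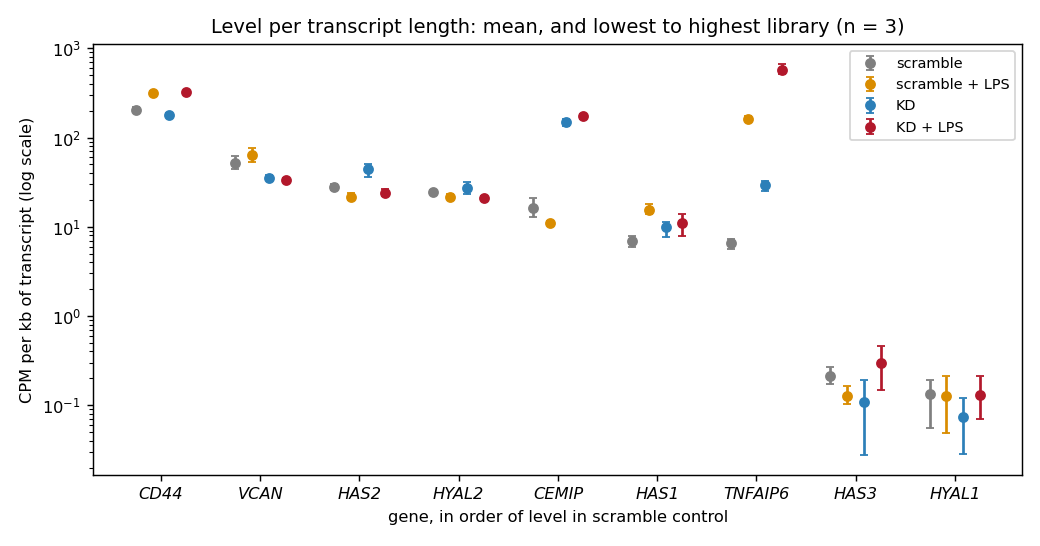
Mean level of each gene per kb of reference transcript (log axis) in the 4 groups, with bars from the lowest to the highest of 3 libraries. TNFAIP6 runs from 6.66 CPM per kb in scramble to 580 CPM per kb in KD with LPS, while HYAL2 keeps between 21.1 and 27.1 CPM per kb.

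Another 37 genes of hyaluronan supply, breakdown and binding were listed by role. In KD without LPS 30 of them had enough counts, with 7 higher and 6 lower at an adjusted p under 0.05, and with LPS 28 had, with 9 higher and 6 lower. LPS in scramble raised 3 and lowered 4 of 28, and LPS in KD raised 5 and lowered 3 of 29. Of 7 genes of precursor supply, 4 were lower in KD without LPS and 3 with LPS, none was higher, and the others did not pass, such as PGM3 at 0.10 and 0.23 (adjusted p = 0.4 and 0.0524). These counts stand beside the percentages of all genes given above, and no test was made of the groups of genes.

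UGDH, the enzyme that makes UDP-glucuronic acid, had the clearest fall among the supply genes. It was at 337 ± 14.2 CPM in scramble, 230.5 ± 24.6 CPM in scramble with LPS, 121 ± 6.27 CPM in KD and 85.4 ± 4.43 CPM in KD with LPS (SD, n = 3), with all KD libraries below all scramble libraries. The log2 fold change of KD was -1.48 without LPS (SE 0.08, adjusted p = 1.1e-07) and -1.43 with LPS (SE 0.09, adjusted p = 6.34e-08), and LPS lowered it by -0.54 in scramble (adjusted p = 0.00147) and -0.50 in KD (adjusted p = 0.000781). GNPNAT1 and UAP1, which act on the way to UDP-N-acetylglucosamine, were lower in KD without LPS by -0.64 and -0.59 (adjusted p = 5.99e-05 and 0.000236). With LPS they were lower in KD by -0.61 and -0.73 (adjusted p = 0.000289 and 1.59e-05). GFPT2, which feeds the same route, rose with LPS in scramble by 0.56 and in KD by 0.59 (adjusted p = 0.00146 and 8.6e-05). GNPNAT1 fell with LPS, by -0.72 in scramble and -0.70 in KD (adjusted p = 0.000196 and 5.89e-05). UAP1 changed by -0.13 and -0.28 (adjusted p = 0.338 and 0.0492). Of the 7 supply genes, LPS raised 1 and lowered 2 in scramble, and raised 2 and lowered 3 in KD, beside the percentages of all genes given above. In degradation, CEMIP2, a relative of CEMIP in the plasma membrane, rose by 0.56 to 0.60 in all 4 comparisons (adjusted p at most 0.00148), and the lysosomal GUSB was lower in KD by -0.63 without LPS and -0.86 with LPS (adjusted p = 0.00382 and 0.000169). GNPNAT1, UAP1, PGM3, GFPT2, CEMIP2 and GUSB were chosen for naming after their values were seen.

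Among binding proteins, ACAN (aggrecan, the large cartilage proteoglycan) had few counts in scramble (22 to 29 without LPS and 0 to 5 with LPS), against 329 to 823 in KD and 175 to 471 in KD with LPS. The KD and scramble libraries did not overlap (adjusted p = 1.53e-07 without LPS and 1.1e-06 with LPS), and a fold change against 0 to 5 counts is not given. ACAN reached the mean count asked for naming only through its KD libraries, and naming also asked for a call. Its p-values and lack of overlap thus describe a gene picked for this difference and are no separate support for it. Naming by rule asked for a call of UGDH, HAPLN3, ITIH4, ITIH5, PTX3, HMMR and TLR4 as well. The p-values of these genes are likewise a description and no separate support. HAPLN3, a link protein that ties proteoglycans to hyaluronan, was 4.04-fold higher in KD without LPS (log2 fold change 2.01, SE 0.21, adjusted p = 2.06e-05) and 4.85-fold with LPS (2.28, SE 0.21, adjusted p = 2.26e-06). The heavy chain relative ITIH5 went from 1.56 ± 0.04 to 26.3 ± 9.61 CPM without LPS (log2 fold change 4.08, SE 0.27, adjusted p = 6e-07) and from 2.68 ± 0.60 to 22.5 ± 9.09 CPM with LPS (3.06, adjusted p = 1.89e-06). ITIH4 was higher in KD without LPS by 1.37 (SE 0.42, adjusted p = 0.0303), and with LPS the log2 fold change was 0.76 (adjusted p = 0.266). It had 24 to 70 counts per library in scramble and 51 to 115 in KD, with or without LPS. Like ACAN, it reached the mean count asked for naming only through its KD libraries. PTX3, a pentraxin that joins TSG-6 and heavy chains in the hyaluronan matrix, was at 3079 ± 491 CPM in scramble and 5403 ± 538 CPM with LPS, and at 3628 ± 142 CPM in KD and 7723 ± 31.2 CPM with LPS. VEPH1 overlaps it on the opposite strand. LPS raised PTX3 by 0.82 in scramble (SE 0.12, adjusted p = 0.000605) and by 1.09 in KD (SE 0.05, adjusted p = 1.67e-09). KD was higher with LPS by 0.51 (SE 0.07, adjusted p = 9.75e-05), and without LPS the log2 fold change of KD was 0.24 (adjusted p = 0.106).

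Of the receptors other than CD44, HMMR, which binds hyaluronan and also serves the mitotic spindle, was higher in KD by 1.40 without LPS (SE 0.27, adjusted p = 0.0024) and by 1.01 with LPS (SE 0.27, adjusted p = 0.0127). Beside it, the sum of 4 proliferation markers was 32.5 to 53.0 CPM in scramble, 39.8 to 80.3 CPM in scramble with LPS, 52.9 to 72.3 CPM in KD and 69.6 to 77.5 CPM in KD with LPS. Of the 4, TOP2A and CDK1 were higher in KD without LPS (0.94 and 1.00, adjusted p = 0.00204 and 0.019), beside 12.1% of all genes. With LPS 0 of the 4 were called, beside 12.7% of all genes higher and 14.2% lower. The part of these markers in the HMMR difference was not tested. TLR4, the LPS receptor, which hyaluronan fragments can also engage, was at 16.3, 15.1 and 11.5 CPM in scramble and 9.05, 7.40 and 7.22 CPM in scramble with LPS. In KD it was at 12.4, 13.4 and 15.2 CPM and with LPS at 12.6, 18.8 and 16.7 CPM. LPS lowered TLR4 in scramble, where the groups did not overlap, by -0.84 (SE 0.16, adjusted p = 0.00452), and in KD the change was 0.23 (adjusted p = 0.434) with overlap. The difference between both was 1.09 (SE 0.24, adjusted p = 0.0302), the 1 call in the interaction among 31 of these genes tested. Against scramble, KD was higher with LPS by 1.02 (SE 0.18, adjusted p = 0.000617), without overlap. Without LPS the log2 fold change of KD was -0.06 (adjusted p = 0.802).

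**Figure D5:**
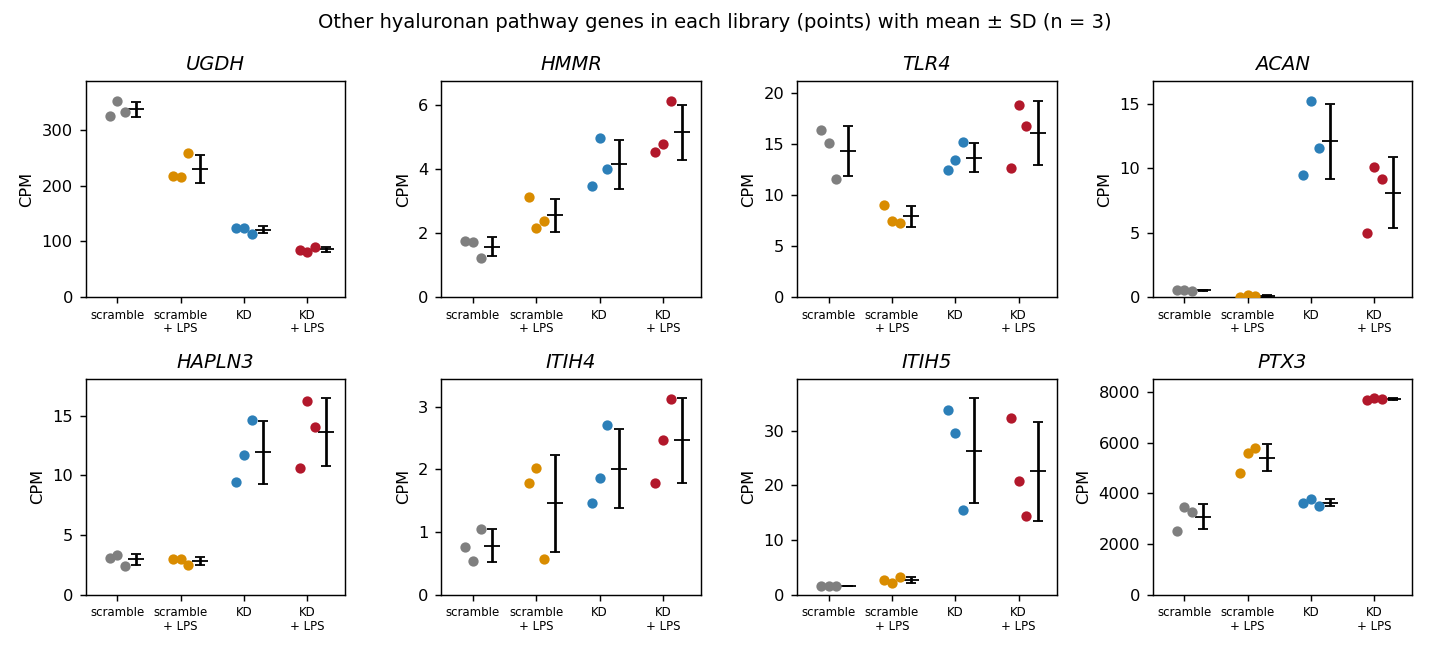
Level of the 8 further hyaluronan genes named by rule (CPM, linear axis from 0) in each library (points), with the mean ± SD of 3 libraries per group. UGDH falls from 337 CPM in scramble to 85.4 CPM in KD with LPS, whereas ACAN, HAPLN3 and ITIH5 are higher in the KD libraries.

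Genes with the most like pattern over the 12 libraries were sought by Pearson's r of log2 CPM among 11811 genes whose mean was 50 counts or more, as a description, since libraries of 1 group share their treatment and hairpin. CEMIP ran closest to ETS2 (r = 0.994) and MMP1 (0.993), and TNFAIP6 to CXCL2 and ZC3H12A (both 0.994). CD44 ran closest to HECW2 (0.982) and TNFAIP3 (0.978), and VCAN to MLEC (0.976) and NRP1 (0.965). HAS2 ran closest to UBL4A (0.954) and CDCA4 (0.926), and HYAL2 to MRPS12 (0.931) and POLRMT (0.921). HAS3 and HYAL1 had too few counts for this measure.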

How the data were processed

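RNA-seq of 12 libraries (3 in each of 4 groups) was used. The authors deposited estimated counts per gene name, not normalized for library size or length, from kallisto 0.44.0 on GRCh38 transcripts, per the submitters' notes, which also list bcl2fastq 2.19 and DESeq2 1.32.0. The annotation release and use of strand are not given in the sources used here. A row with no gene name (0.235% to 0.306% of counts) was left out. Counts were rounded, genes with at least 10 counts in total per fit were kept, and edgeR 4.0.16 (R 4.3.3) with TMM scaling and the quasi-likelihood test was run on 6 libraries per comparison, and on all 12 for the interaction, with Benjamini-Hochberg adjustment over all genes tested. The calls were adjusted p under 0.05, also with at least 2-fold.

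The members and lists were chosen with earlier results of these data known. Further genes were named at a mean of at least 50 counts and a 2-fold call, or a call in the interaction. Library-size scaling shifted the median log2 fold change of all genes by 0.10 in KD without LPS, and the share of calls that were higher moved from 44.5% to 61.4% there, from 47.2% to 59.2% in KD with LPS and from 46.9% to 35.2% for LPS in KD. Steps were run on simulated counts with a fixed spread and few changed genes, as a check of the code and not of error rates in these data. Lengths and positions are from GENCODE release 44, promoters from RefSeq. Alternatives included DESeq2 1.42.0, other scalings and filters, a block on the replicate number, and leaving out single libraries. Libraries of a group correlated at 0.977 to 0.990 (log2 CPM), and none were duplicates. Counting precision limits genes with few counts, chiefly HAS3 and HYAL1. The genes most like HAS1 are not reported here.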

Additional observations from a re-analysis of the deposited data

Results flagged for a closer look

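For CEMIP the KD effect with LPS exceeded that without LPS by 0.78 on the log2 scale (edgeR's test of the interaction over 12 libraries, adjusted p = 0.034), where LPS lowered CEMIP in scramble and the KD libraries with LPS lay above those without. This interaction call was lost in 9 of 12 fits that left out 1 library and with filterByExpr (adjusted p = 0.0536). The call of the fall in scramble was lost in 3 of 6 such leave-out fits. For TLR4 the difference between the KD effects with and without LPS was 1.09 (adjusted p = 0.0302), with all 3 scramble libraries with LPS below all 3 without and the KD groups overlapping. Of all 17173 genes tested, 219 were called in the interaction.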

How the results depend on the processing

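Of 45 values (9 genes in 5 comparisons), 28 had 1 direction and stayed on 1 side of the threshold (adjusted p of 0.05) whichever alternative was run, 4 lost a call, 6 gained one and 7 turned in at least 1. The turned values are small or rest on few counts. HYAL2 in KD with LPS turned to 0.041 with scaling by library size alone. With 1 library left out the log2 fold changes ran from -0.0029 to 0.067 for CD44, -0.48 to 0.66 for HYAL1 and -0.097 to 0.0013 for HYAL2 in KD with LPS, from -0.0041 to 0.23 for HYAL2 in KD without LPS, from -0.64 to 0.33 for HYAL1 with LPS in scramble, and from -0.067 to 0.32 for HAS1 and -0.099 to 0.0015 for VCAN with LPS in KD.

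Members called for LPS in KD numbered 3, and 5 with DESeq2. For LPS in scramble they ranged from 3 to 5 with 1 library left out. Calls over all genes in those fits are not given here, so these counts are not read as a result about the list. In the interaction 1 was called, 3 with DESeq2, 3 with genes of at least 1 count in total kept, 0 with edgeR's filterByExpr, where CEMIP had an adjusted p of 0.0536, and 0 to 2 with 1 library left out. Over all genes the interaction calls were 219, 475 with DESeq2 and 431 with genes of at least 1 count kept. The cause was not tested. HYAL1 gave no value under filterByExpr in KD with LPS and for LPS in KD.

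Whether replicate numbers pair the libraries was not settled, and the main fits used no pairing. Deviations of same-numbered libraries correlated at -0.10 to 0.25. Libraries correlated best with their own number in 0, 3, 3 and 4 of 6 cases. With the replicate block, 5 members were called for LPS in KD (CEMIP and HYAL2 added) and 4 in KD with LPS (HAS1 added). For LPS in scramble 6 were called (VCAN added) and in the interaction 2 (HAS1 added), and no call of a member was lost. In KD without LPS 5 members were called with and without the block, while calls over all genes went from 4411 to 3857. Calls over all genes with the block are not given here for the other comparisons, so nothing is read from these counts about the list. The alternatives were run for the 9 members and not for the other pathway genes. Depth limits HAS3 and HYAL1.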
